A study of Mus musculus with 8 samples.

Results

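The C1q macrophages described here are 362 of the 11806 cells in a pooled single-cell RNA table of neonatal mouse lung, or 3.07% of cells (95% exact binomial interval 2.76 to 3.39, counting error only). They were chosen by their own UMI counts (unique molecular identifiers, each standing for 1 captured mRNA molecule). A member had at least 5 UMIs of C1qa, C1qb and C1qc together, under 2 of Ear1 and Marco together, none of Cdh5, Sftpc under 3% of its UMIs, and under 3 of Mki67 and Top2a together. The levels of those genes are therefore a description of the rule, and every comparison below is a description with no test, because the cells were separated on the same counts.

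The series holds 8 libraries from lungs of C57BL6/J pups at day 5, all labelled WT in their titles. In 4 libraries the pups breathed 65% O2 from birth (hyperoxia) and in 4 they breathed 21% O2 (air). Lipopolysaccharide (LPS), a bacterial endotoxin, had been given before birth at gestation day 14 in both, so the air group is no untreated group. Lungs were frozen in DMSO and serum, thawed and flow-sorted for endothelial, epithelial and immune cells, so a share of cells reflects the sort as well as the lung. The table names no library for a cell: none of the 8 libraries could be matched to a column. Hyperoxia and air were for that reason not compared, and the table is treated as 1 pooled sample with no p-value.

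The columns do fall into 8 alphabetical runs of barcodes, which carry 7 different suffixes. Which library or oxygen group a run came from was not given in the sources used here, so runs serve only to show how far a value varies inside the table, by range and median. Of the 8 runs, 6 held at least 20 members (runs 1, 3, 4, 5, 6 and 7) and runs 2 and 8 held 2 and 4. Only 12 barcodes occurred in more than 1 run, and 0 of the 362 members carried such a barcode. The deposited cells had at least 800 detected genes and at most 9.99% mitochondrial UMIs. Run 1 supplied 43.8% of all UMIs of the members, so a pooled level leans towards it.

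C1q is the recognition subunit of the classical complement pathway. It is assembled from A, B and C chains encoded by C1qa, C1qb and C1qc, and most of it is made by macrophages and related myeloid cells rather than by liver. C1q binds immune complexes, microbes and dying cells, and tissue macrophages that make it are known for clearing cell debris and for presenting antigen. In adult mouse lung, macrophages of the interstitium are commonly divided into cells with Lyve1, Folr2 and Mrc1 that lie near vessels and cells with high MHC class II and Cx3cr1 that lie near nerves and airways. Position in the tissue cannot be read from dissociated cells, so "interstitial" is a label here and not a measurement, and the cells are called by the genes that chose them.

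The 3 C1q genes sit side by side on the minus strand of chromosome 4 (build GRCm38, GENCODE annotation). C1qb spans 136880129 to 136886187, C1qc 136889804 to 136893065 and C1qa 136895917 to 136898803. Promoter windows of 300 bases, 250 before and 50 after the start, were taken from RefSeq (GRCm38.p6) and searched on both strands for TGCTGA, the MAF half-site, and GAGGAA, the PU.1 core. Of 10 genes looked up for this search or the MHC class II search below, 8 matched the table. C1qa and H2-Ab1 are named only. The C1qb and C1qc windows are shown because their genes define the cells. Capitals mark a match, and the second window holds GAGGAA read on the opposite strand.
C1qb, chr4:136886151-136886450, minus strand: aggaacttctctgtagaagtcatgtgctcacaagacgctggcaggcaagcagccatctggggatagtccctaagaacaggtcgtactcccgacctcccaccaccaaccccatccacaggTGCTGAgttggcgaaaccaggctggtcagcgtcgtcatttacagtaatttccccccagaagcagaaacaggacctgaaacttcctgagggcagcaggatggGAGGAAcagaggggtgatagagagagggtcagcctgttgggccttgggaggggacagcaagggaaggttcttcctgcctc
C1qc, chr4:136892865-136893164, minus strand: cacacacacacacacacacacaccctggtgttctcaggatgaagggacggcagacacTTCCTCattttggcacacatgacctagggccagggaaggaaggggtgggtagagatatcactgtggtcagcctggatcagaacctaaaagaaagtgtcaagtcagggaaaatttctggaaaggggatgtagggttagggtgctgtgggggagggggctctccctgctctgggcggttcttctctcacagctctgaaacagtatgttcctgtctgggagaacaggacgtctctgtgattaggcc
The C1qb window held 1 MAF half-site, starting at base 120, and 1 PU.1 core, at base 221. In C1qc there was 1 PU.1 core, at base 58. Among all 32851 promoter windows of that length, 19.5% held TGCTGA and 28.3% held GAGGAA, so both matches are common letters and are given as a description only.

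C1q transcripts were abundant in the members and close to 0 elsewhere. Members held 15193 C1q UMIs in all, with a median of 21.5 and a maximum of 283 per cell, and 292 of 362 had all 3 chains. The alveolar macrophages, taken as cells with at least 2 UMIs of Ear1 and Marco and at least 5 of Lyz2 (865 cells), had 3.51 CPM of C1qa, 4.96 of C1qb and 2.06 of C1qc (CPM, UMIs per 1000000 UMIs of the pooled group). In T cells, which should lack C1q, C1qa and C1qb were each at 0.244 CPM and C1qc at 0.

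C1qb was the most counted chain in each of 6 runs, and the proportions of the 3 chains differed between runs. C1qa made up 33.9% of C1q UMIs in the pooled members (33.1 to 34.6), C1qb 45.7% (44.9 to 46.5) and C1qc 20.5% (19.8 to 21.1). By run, C1qa lay between 28.7% and 35.9%, C1qb between 43.4% and 52.7% and C1qc between 18.6% and 21.5%. The intervals of C1qb in run 5 (50.3 to 55.2%) and run 6 (41.8 to 44.9%) did not overlap, nor did those of C1qa in the same runs (26.5 to 31.0% and 34.2 to 37.2%). Each gene is counted at its 3' end, so a longer mRNA gives no more UMIs, but capture can differ between genes and these shares are not protein ratios.

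**Figure D1:**
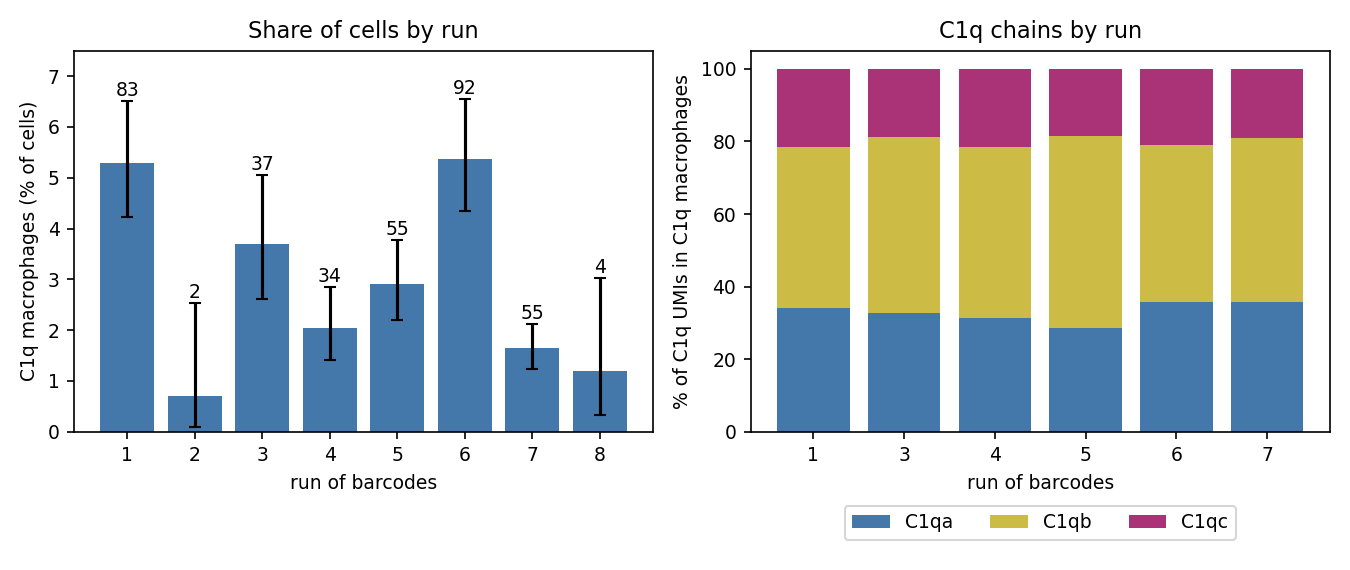
Left, C1q macrophages as a percentage of all cells in each of the 8 runs of barcodes (bars, 95% exact binomial intervals, number of members above each bar); runs 1 and 6 had 5.29% and 5.37% and run 2 had 0.709%. Right, the percentage of C1q UMIs from each chain in the 6 runs with at least 20 members; C1qb was the most counted chain in all 6.

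The share of C1q macrophages differed between runs beyond counting error. It was 5.29% in run 1, 0.709% in run 2, 3.69% in run 3, 2.04% in run 4, 2.91% in run 5, 5.37% in run 6, 1.64% in run 7 and 1.19% in run 8. Runs 1 and 6 had the highest shares, with intervals of 4.23 to 6.51% and 4.35 to 6.55% that did not reach the upper bound of 2.13% in run 7. The same runs held few alveolar macrophages, 47 and 22, against 77 to 262 in runs 3, 4, 5 and 7. Members were also sequenced to different depths, with a median of 20268 UMIs per cell in run 1 and 4045.5 to 7320 in the other 5 runs with at least 20 members. Depth bears on the rule: of the 10383 cells with at least 2000 UMIs, 352 met it on all their UMIs. When each had been thinned to 2000 UMIs, 238 (2.29%) met it.

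The members' other fixed markers were Apoe and Ms4a7. Apoe encodes apolipoprotein E, which carries cholesterol out of cells, and was present in 355 of 362 members. Its pooled level was 10747 CPM in C1q macrophages and 206 CPM in alveolar macrophages, 52.2-fold higher (49.7 to 54.8, counting error only). By run it ran from 6754 through a median of 10891 to 13652 CPM in C1q macrophages and from 79.8 through 189 to 274 CPM in alveolar macrophages, so the runs of the groups did not overlap. After thinning to 2000 UMIs per cell, 96.9% of 352 members had an Apoe UMI, against 17.7% of 860 alveolar macrophages and 7.04% of 895 T cells. Most monocytes (described below) had one too, 71.1% of 823 classical and 63.6% of 1113 nonclassical monocytes. How much of any share is free RNA was not tested. Median depth was 7608.5 UMIs in C1q macrophages, 8050 in alveolar macrophages and 5270 in T cells. Without thinning the shares with an Apoe UMI were 98.1%, 33.5% and 15.0% in that order. Ms4a7, a membrane-spanning protein of macrophages with several close paralogs, was found in 160 members (44.2%). It stood at 169 CPM in C1q macrophages and 9.51 CPM in all other cells, 17.8-fold higher (16.0 to 19.8).

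Apoe differed little across the C1q threshold. The 31 members with 5 or 6 C1q UMIs had 5250 CPM of Apoe, 16.2 of Ms4a7 and 234 of Cx3cr1. The 63 cells just outside, with 3 or 4 UMIs and meeting the rest of the rule, had 4934, 81.9 and 210 CPM of the same genes. The 192 members with 20 or more C1q UMIs had 14317 CPM of Apoe, 234 of Ms4a7 and 600 of Cx3cr1. Both bands beside the cut lay below these values in each of the 3 genes.

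A gene counts as past the fold when it is at least 4-fold higher or lower and has at least 20 CPM in the higher group. By that measure 288 of 6605 genes (4.36%) were higher in C1q macrophages than in alveolar macrophages and 241 (3.65%) were lower. Of the 288 higher genes, 233 were higher in each of the 6 runs, and of the 241 lower genes 228 were lower in each. Against all other 11444 cells, 56 of 6975 genes (0.803%) were higher and 461 (6.61%) were lower. The rule separated these groups, so the counts describe its result. Counts of listed genes below stand beside these shares of all genes.

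**Figure D2:**
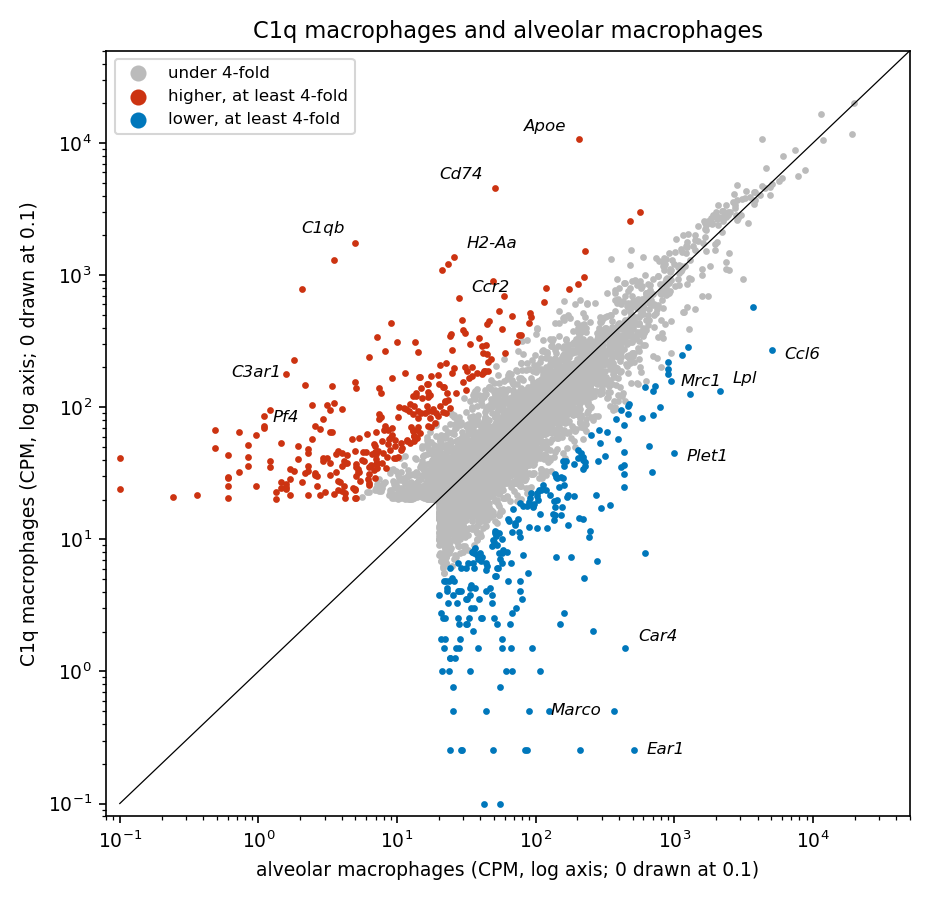
Each point is a gene with at least 20 CPM in C1q macrophages (vertical log axis) or alveolar macrophages (horizontal log axis), and the line marks equal levels. Of the 6605 genes, 288 lay at least 4-fold above the line, among them C3ar1, Cd74 and Apoe, and 241 lay at least 4-fold below it, among them Lpl, Plet1 and Car4; C1qb, Ear1 and Marco were used to choose the cells.

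The near-vessel markers differed among themselves: Mrc1 was present, and Lyve1 and Folr2 were at or near 0. Mrc1 had a UMI in 50% of members (29.0% after thinning to 2000 UMIs). Lyve1, a hyaluronan receptor, gave 1 UMI in all 362 members, Folr2, a folate receptor, gave 2, Timd4, a receptor for phosphatidylserine on dying cells, gave 2, and Vsig4, a complement receptor, gave 1. Cd163, the haemoglobin scavenger receptor, gave 0 UMIs, which allows a share of up to 0.829% of cells with a UMI. Of the 20 genes in the resident interstitial list, 9 reached 20 CPM in C1q macrophages or alveolar macrophages. Of these, 3 were at least 4-fold higher in C1q macrophages and 1 was at least 4-fold lower, beside 4.36% and 3.65% of all genes. The median log2 fold of these 9 was 1.22, against -0.18 over all genes tested. The lower gene was Mrc1, the mannose receptor, at 194 CPM in C1q macrophages and 905 in alveolar macrophages, lower in 6 of 6 runs. Selenop, which exports selenium, was at 345 CPM in C1q macrophages and 147 in alveolar macrophages, and Igf1, insulin-like growth factor 1, at 65.5 and 17.2.

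Among genes with at least 100 CPM in the higher group and the same direction in every run, the largest folds over alveolar macrophages outside the C1q genes were those of C3ar1, Tmem176b and Cd74. C3ar1, the receptor for the complement fragment C3a, was at 227 CPM in C1q macrophages and 1.81 in alveolar macrophages, 125-fold higher (75.5 to 225). Tmem176b, a membrane protein of the endosomal system, was at 178 and 1.57 CPM, and Il1r2, the decoy receptor for interleukin 1, at 147 and 2.18. Aif1, an actin-bundling protein known as IBA1, was at 434 CPM in C1q macrophages and 9.07 in alveolar macrophages. Cxcl16, a transmembrane chemokine that binds oxidised lipoprotein, was at 239 and 6.29 CPM. All 5 genes were higher in C1q macrophages in each of the 6 runs, as the limits for naming them here required. Without run 7 Tmem176b was 561-fold and Il1r2 108-fold higher, since the alveolar levels were then 0.311 and 1.40 CPM.

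By the same limits, the genes furthest below the alveolar level included Krt19, Car4, Serpinb1a, Atp6v0d2 and Plet1. Car4, a carbonic anhydrase, was at 1.52 CPM in C1q macrophages and 445 in alveolar macrophages. Atp6v0d2, a subunit of the vacuolar proton pump, was at 7.84 and 616 CPM, Plet1 at 45.3 and 999, Krt19 at 0.253 and 208 and Serpinb1a at 2.02 and 259. Of 25 genes in the alveolar list, 20 of the 23 tested were at least 4-fold lower in C1q macrophages and 0 were at least 4-fold higher. Over all genes these shares were 3.65% and 4.36%. Ear1 and Marco are in the list and were used to choose both groups, so their lower levels were set by the rule. Pparg, the nuclear receptor on which alveolar macrophages depend, was at 34.4 CPM in C1q macrophages and 218 in alveolar macrophages, and Lpl, lipoprotein lipase, at 132 and 2144. Ear2, which has close paralogs and is uncertain for that reason, was at 126 and 1291 CPM. Plet1 was not equally low in all runs: it was at 4.04, 109, 145, 154, 9.91 and 138 CPM in runs 1, 3, 4, 5, 6 and 7, so runs 1 and 6 lay far below the other 4. Without run 1 Plet1 was at 77.4 CPM in C1q macrophages and 1019 in alveolar macrophages, and Lpl at 206 and 2244. Without run 6 Pparg was at 21.7 and 214 CPM. The C1q macrophage levels of Krt19, Car4 and Serpinb1a rest on 1, 6 and 8 UMIs, and their folds move with single runs.

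Against all other cells, the highest folds outside the C1q genes, within the same limits, were those of Pf4 at 32.1 (104 CPM in C1q macrophages, 3.23 in other cells), Ms4a7 at 17.8, C3ar1 at 12.5 and Apoe at 11.9. Only 62 of 362 members had a Pf4 UMI, and Pf4 was at 31.1, 162, 48.5, 130, 78.3 and 560 CPM in runs 1, 3, 4, 5, 6 and 7. Without run 7 it was at 66.4 CPM in C1q macrophages and 2.15 in other cells, 30.9-fold higher, and without run 1 at 160 and 3.62, 44.3-fold higher. Mmp12, macrophage elastase, was at 151 CPM in C1q macrophages and 18.1 in other cells, and at 204 and 15.2 without run 1. Gatm, which makes the precursor of creatine, was at 102 and 13.8 CPM, and Hpgds, which makes prostaglandin D2, at 128 and 20.1. Cd74 and H2-Aa, both of MHC class II, were at 4597 and 1381 CPM in C1q macrophages and 663 and 225 in other cells.

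Complement genes other than C1q showed a mixed picture. In the complement list 6 of 14 tested genes were at least 4-fold higher than in alveolar macrophages, beside 4.36% of all genes. Of these 6, 3 are the C1q genes themselves. The others included C3ar1 and Itgam (the alpha chain of complement receptor 3), which was at 188 CPM in C1q macrophages and 42.2 in alveolar macrophages, higher in 5 of 6 runs. C1ra, C1s1, C4a and C4b, which supply the proteases and the next component of the classical pathway, had 1.52, 0.506, 0.253 and 0.253 CPM in C1q macrophages. C4a and C4b are near-identical copies, and their split is uncertain. C3 was at 82.4 CPM in C1q macrophages and 80.2 in alveolar macrophages when pooled, but lower in C1q macrophages in each of the 6 runs, with run values of 18.2 to 117. Here the pooled ratio and the runs point in opposite directions. C5ar1, the receptor for C5a, was at 140 and 180 CPM.

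**Figure D3:**
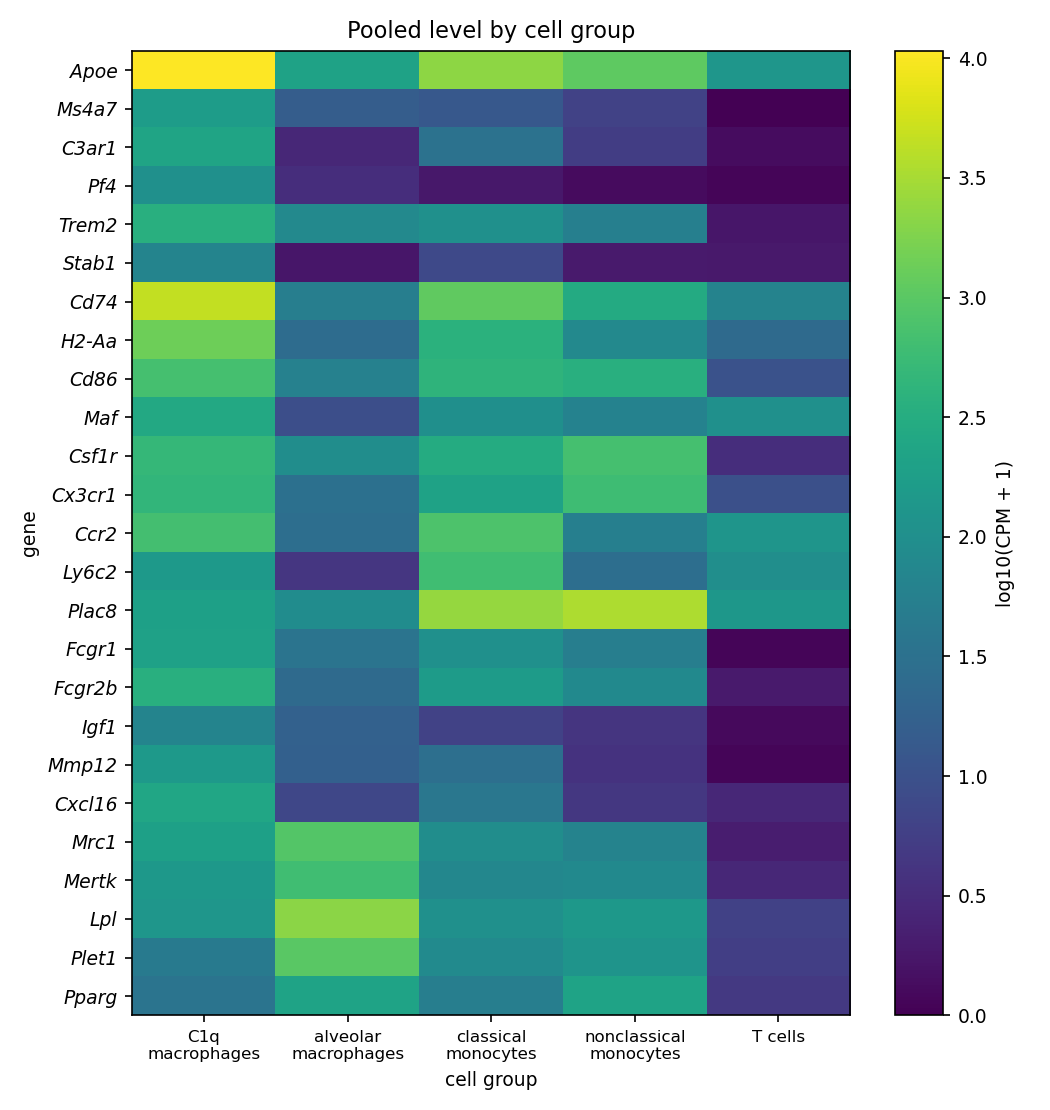
Pooled level of 25 genes (rows) in C1q macrophages, alveolar macrophages, classical monocytes, nonclassical monocytes and T cells (columns), on a log10(CPM + 1) colour scale. Apoe reached 10747 CPM and Cd74 4597 CPM in C1q macrophages, while Lpl and Plet1 were highest in alveolar macrophages and Plac8 in monocytes.

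MHC class II molecules present peptides from engulfed material to CD4+ T cells, with Cd74 as the chaperone that guides them. Of 12 tested presentation genes 8 were at least 4-fold higher and 0 lower than in alveolar macrophages, beside 4.36% and 3.65% of all genes. The median log2 fold was 3.21. Against classical monocytes (defined below) 1 of 12 was at least 4-fold higher and 0 lower, beside 0.661% and 0.709% of all genes. Cd74 was at 4597 CPM in C1q macrophages and 51.3 in alveolar macrophages, 89.6-fold higher (81.4 to 98.9). H2-Aa, H2-Ab1 and H2-Eb1, the class II chains, were at 1381, 1212 and 1085 CPM in C1q macrophages, against 25.6, 23.2 and 21.0 CPM in alveolar macrophages. H2-DMb1, a subunit of the peptide editor, was at 183 and 25.0 CPM, and Cd86, a ligand that co-stimulates T cells, at 693 and 59.0. Without run 7 Cd74 was 271-fold, H2-Aa 329-fold, H2-Ab1 235-fold and H2-Eb1 745-fold higher. Cd74 was then at 4427 CPM in C1q macrophages and 16.3 in alveolar macrophages, and H2-Aa at 1333 and 4.05. In T cells Cd74 was at 62.6 CPM and H2-Aa at 23.5 CPM.

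The class II level was uneven among the members. With the UMIs of H2-Aa, H2-Ab1 and H2-Eb1 added up, 138 members had 0, 29 had 1, 19 had 2 to 4 and 176 had 5 or more, with a median of 55 among those 176 and a maximum of 576. Depth was similar on both sides: the 176 high cells had a median of 7569 UMIs and the 167 low cells (0 or 1) 7540. After thinning to 2000 UMIs, 168 of 352 cells had 0, 48 had 1 to 4 and 136 had 5 or more. The high share by run was 26.5% in run 1, 83.8% in run 3, 73.5% in run 4, 61.8% in run 5, 32.6% in run 6 and 50.9% in run 7. Runs 1 and 6 were the lowest and run 3 the highest.

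**Figure D4:**
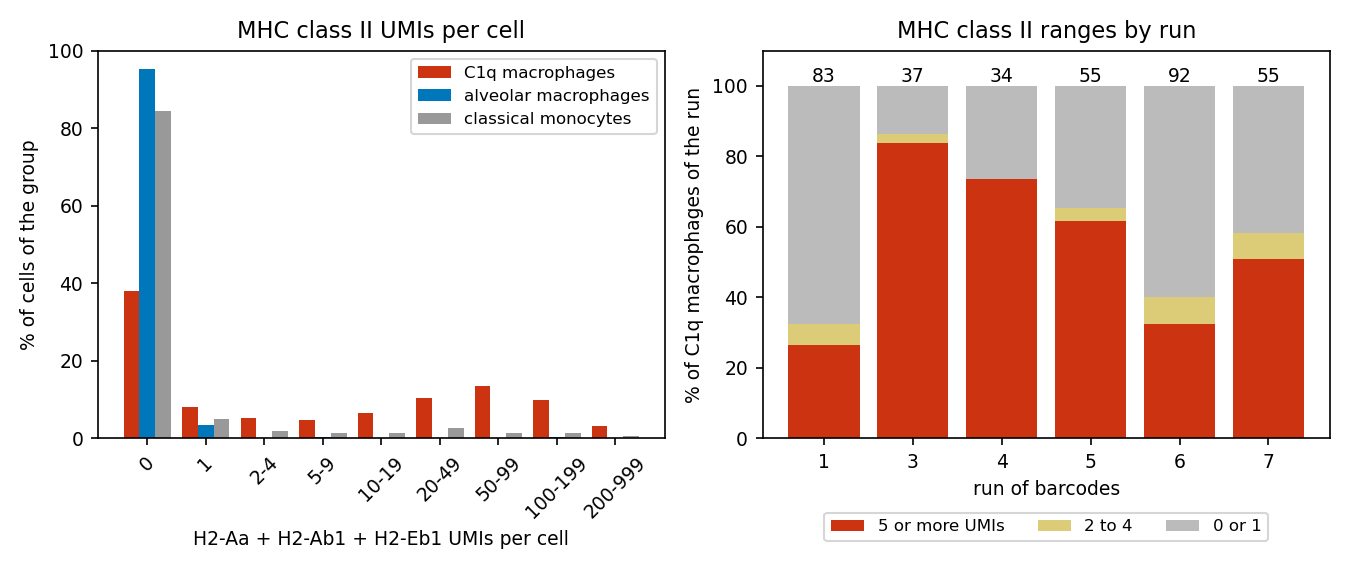
Left, the percentage of cells in each band of H2-Aa, H2-Ab1 and H2-Eb1 UMIs added up per cell, for 362 C1q macrophages, 865 alveolar macrophages and 842 classical monocytes; 138 of the C1q macrophages, 824 of the alveolar macrophages and 711 of the classical monocytes had 0. Right, the percentage of C1q macrophages with 5 or more, 2 to 4, and 0 or 1 such UMIs in each of 6 runs, with the number of members above; 26.5% in run 1 and 83.8% in run 3 had 5 or more.

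Promoter windows of 2 class II genes are shown because their transcripts, with those of H2-Ab1, set this split. They were searched for CTGATTGG, the Y box that NF-Y binds in class II promoters, on both strands, and 4.10% of all 32851 windows held it. Capitals mark the match.
H2-Aa, chr17:34287774-34288073, minus strand: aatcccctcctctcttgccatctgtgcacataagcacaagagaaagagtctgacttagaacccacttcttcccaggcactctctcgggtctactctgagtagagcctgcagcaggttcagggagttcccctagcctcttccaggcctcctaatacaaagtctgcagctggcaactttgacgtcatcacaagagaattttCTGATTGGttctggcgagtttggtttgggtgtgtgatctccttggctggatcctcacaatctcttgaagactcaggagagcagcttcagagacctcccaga
H2-Eb1, chr17:34305617-34305916, plus strand: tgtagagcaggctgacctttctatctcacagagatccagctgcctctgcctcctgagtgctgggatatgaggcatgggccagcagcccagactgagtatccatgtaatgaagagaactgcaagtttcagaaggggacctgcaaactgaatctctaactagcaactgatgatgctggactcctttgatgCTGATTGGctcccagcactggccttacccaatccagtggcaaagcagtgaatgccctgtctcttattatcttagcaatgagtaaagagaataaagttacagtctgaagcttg
The Y box began at base 200 in the H2-Aa window and at base 189 in the H2-Eb1 window.

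Genes outside the 3 used for the split differed between its sides. Cd74 was at 9576 CPM in the 176 high cells and 462 in the 167 low cells, 20.7-fold higher and higher in 6 of 6 runs. Ciita, the master regulator of class II transcription, was at 62.5 and 2.60 CPM, and H2-DMb1 at 375 and 27.1, both higher in 6 of 6 runs. Mmp12 was at 289 CPM in high cells and 37.0 in low cells, and Cxcl2, a chemokine that attracts neutrophils, at 1810 and 810, again higher in each run. Lower in the high cells in each run were Lyz2 (lysozyme 2) at 7486 CPM against 13712 in low cells, Ctsd (cathepsin D) at 601 against 1165, Mgst1 (a microsomal glutathione transferase) at 48.4 against 184, and S100a8, a calcium-binding protein that neutrophils hold in large amounts, at 75.4 against 310. C1qb differed little, at 1974 CPM in high cells and 1594 in low cells, and Apoe was at 10338 and 11438. These folds come from the cells that formed the split and carry no test. Most of these genes were taken from the largest folds among genes with the same direction in each run. Their agreement between runs was therefore set by the choice.

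Receptors for growth factors and chemokines included several that monocytes also carry. Of 23 tested receptor genes 6 were at least 4-fold higher and 0 lower than in alveolar macrophages, beside 4.36% and 3.65% of all genes. Ccr2, the receptor by which monocytes leave the marrow, was at 673 CPM in C1q macrophages, 27.9 in alveolar macrophages and 807 in classical monocytes, where it was used to choose the cells. Cx3cr1, the fractalkine receptor, was at 454 CPM in C1q macrophages, 29.4 in alveolar macrophages, 209 in classical monocytes and 602 in nonclassical monocytes. Csf1r, the receptor for the growth factor M-CSF, was at 484, 92.7, 298 and 691 CPM in the same order of cell groups. Across the 6 runs Ccr2 lay between 409 and 827 CPM and Cx3cr1 between 299 and 605 CPM in C1q macrophages. Neither range met that of the alveolar macrophages, which reached 118 and 295 CPM. Csf1r did overlap, at 303 to 587 CPM in C1q macrophages and 64.2 to 415 in alveolar macrophages. The highest alveolar value of each of these genes was that of run 6, which held 22 alveolar macrophages. Without run 6 Cx3cr1 was at 403 CPM in C1q macrophages and 16.3 in alveolar macrophages.

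Classical monocytes are blood cells from which lung macrophages can arise. Here they were cells with at least 4 UMIs of Ly6c2 and Ccr2 together, at least 5 of Lyz2, at most 1 of C1q, 0 of the neutrophil granule genes Retnlg, Ngp, Camp and Ltf, and fewer than 10 of S100a8 and S100a9 together (842 cells). Their 7 neutrophil markers still summed to 288 CPM, beside 274 in C1q macrophages. C1q macrophages were at least 4-fold higher in 41 of 6204 genes (0.661%) and at least 4-fold lower in 44 (0.709%), far fewer than against alveolar macrophages, although the rules for each group differ. Of these 41 and 44 genes, 33 and 35 went the same way in each of 6 runs. When each cell was first thinned to 2000 UMIs the counts were 90 and 73, and without run 1 they were 61 and 63. Higher in the members were Pf4 at 104 CPM against 0.835 in classical monocytes, Ms4a7 at 169 against 12.0, Lgmn (the endosomal protease legumain) at 638 against 148, and Rgs1 (a brake on chemokine receptor signalling) at 395 against 87.1. Apoe was at 10747 CPM in C1q macrophages and 2209 in classical monocytes. Lower in the members were Plac8 at 196 CPM against 2433, Ifitm3 (an antiviral membrane protein) at 394 against 2045, F13a1 (coagulation factor XIII, subunit A) at 40.7 against 235, and Ly6c2, which was used to choose the monocytes, at 144 against 632. Without run 7 F13a1 was at 39.6 against 146 CPM, less than 4-fold lower. Classical monocytes carried 1539 CPM of Sftpc, the surfactant protein of type 2 epithelial cells, against 139 in C1q macrophages (46.2 without run 6). The C1q rule put an upper limit on Sftpc and the monocyte rule put none, so the rules bear on this difference. How much of the difference comes from the rules or from free RNA was not tested.

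Csf1r was higher in C1q macrophages than in classical monocytes in 6 of 6 runs, and Plac8 and Ifitm3 were lower in 6 of 6. Without run 1 Plac8 was at 100 CPM in C1q macrophages and 2765 in classical monocytes, and Ifitm3 at 227 and 2293. Of the 18 monocyte genes, 14 were tested against classical monocytes. In the members 0 were at least 4-fold higher and 5 were at least 4-fold lower, beside 0.661% and 0.709% of all genes. The median log2 fold was -1.01, beside -0.07 over all genes tested. Ly6c2, which is in this list, was used to choose the monocytes. Ly6c2 was at 197, 0, 0, 18.2, 214 and 13.4 CPM in runs 1, 3, 4, 5, 6 and 7, so nearly all of it came from runs 1 and 6. Fn1, fibronectin, was at 728 CPM in C1q macrophages and 1249 in classical monocytes, with run values of 121 to 1168. Without run 1 it was at 385 CPM in C1q macrophages and 1200 in classical monocytes.

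Maf, a transcription factor that restrains self-renewal and shapes macrophage identity, was at 265 CPM in C1q macrophages and 8.23 in alveolar macrophages. Its run values of 185 to 385 CPM in C1q macrophages did not reach down to the 0 to 14.9 CPM of alveolar macrophages. T cells, which also use Maf, had 103 CPM. In the list of transcription factors 7 of 31 tested genes were at least 4-fold higher and 2 at least 4-fold lower than in alveolar macrophages. The shares over all genes were 4.36% and 3.65%. Mef2c was at 209 CPM in C1q macrophages and 20.4 in alveolar macrophages, and Runx3 at 72.0 and 1.09 (117-fold higher without run 7). The lower pair were Pparg and Bhlhe41, which supports alveolar macrophage self-renewal, at 13.9 and 136 CPM. Spi1, which encodes PU.1 and is needed by all macrophages, differed less, at 382 CPM in C1q macrophages and 448 in alveolar macrophages. Against classical monocytes 0 of 29 tested genes of this list were at least 4-fold higher and 0 lower (median log2 fold 0.14). Over all genes these shares were 0.661% and 0.709%, themselves near 0, so nothing is read from the counts.

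Some genes best known from microglia, the macrophages of the brain, were also present. Of the 15 in that list, 9 were tested and 7 were at least 4-fold higher than in alveolar macrophages, a list that includes Cx3cr1, Csf1r and Trem2. Against classical monocytes 2 of 9 tested were at least 4-fold higher and 0 lower. Over all genes 4.36% were higher than in alveolar macrophages and 0.661% higher than in classical monocytes. Rgs10 was at 333 CPM in C1q macrophages and 39.3 in alveolar macrophages, and Gpr34, a receptor for lysophosphatidylserine, at 57.6 and 8.71. Tmem119 had 164 UMIs in 76 members and 0 UMIs in alveolar macrophages, at least 114-fold higher when the 0 is set to 3 UMIs over the group. Fcrls had 86 UMIs in 42 members and 3 in alveolar macrophages. Sall1 and Siglech, which also mark microglia, had 0 UMIs in C1q macrophages.

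Receptors for dying cells went both ways. Of 18 tested phagocytic genes 2 were at least 4-fold higher and 3 lower than in alveolar macrophages, beside 4.36% and 3.65% of all genes. The median log2 fold of the 18 was -0.01. Higher were Stab1, a scavenger receptor, at 65.0 CPM in C1q macrophages and 0.726 in alveolar macrophages, and Trem2, a lipid-sensing receptor, at 352 and 78.0. Lower were Mertk, the receptor kinase for opsonised dying cells, at 142 and 614 CPM, Cd36, a scavenger receptor and fatty acid transporter, at 32.6 and 689, and Pros1, protein S, at 25.8 and 114. Without run 7 Stab1 was 201-fold higher, against an alveolar level of 0.311 CPM, and without run 1 Cd36 was at 51.8 and 737 CPM. Axl was at 238 and 391 CPM. Among 7 tested genes of the Fc receptor list 3 were at least 4-fold higher and 0 lower. Fcgr1 was at 200 CPM in C1q macrophages and 34.7 in alveolar macrophages and Fcgr2b, the inhibitory receptor, at 344 and 24.2. The other gene past the mark was Fcrls, a scavenger-like relative of these receptors.

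Of 26 tested lysosomal genes, 2 were at least 4-fold higher in C1q macrophages and 0 lower, beside 4.36% and 3.65% of all genes, with a median log2 fold of 0.06. These were Cst3, the protease inhibitor cystatin C, at 2982 CPM in C1q macrophages and 568 in alveolar macrophages, and Ctsh, cathepsin H, at 622 and 115. Lgmn just missed that mark at 638 and 160 CPM (3.98-fold). Ctsd was at 936 and 3145 CPM, lower in 6 of 6 runs.

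Lipid genes also went both ways. Of 23 tested, 3 were at least 4-fold higher and 5 lower than in alveolar macrophages, beside 4.36% and 3.65% of all genes. Beside Apoe and Trem2, Apoc2, the activator of lipoprotein lipase, was at 173 CPM in C1q macrophages and 17.7 in alveolar macrophages, and at 101 and 17.0 without run 1. Abca1, which loads cholesterol onto apolipoproteins, was at 324 and 86.7 CPM, under the 4-fold mark but higher in 6 of 6 runs. Abcg1, the other cholesterol exporter of macrophages, went the other way at 159 and 943 CPM, and Cd36, Lpl, Fabp4 (0.253 and 48.9 CPM) and Pparg were lower as well. The median of the list was a log2 fold of -0.78.

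Chemokines in the members included attractants of monocytes, T cells and neutrophils. Of 9 tested, 4 were at least 4-fold higher and 1 lower than in alveolar macrophages, beside 4.36% and 3.65% of all genes. Ccl2, the ligand of Ccr2, was at 107 CPM in C1q macrophages and 3.51 in alveolar macrophages, Ccl4 at 103 and 16.3, and Pf4, platelet factor 4, at 104 and 2.42. The lower gene was Ccl6, at 271 and 5092 CPM. Cxcl2 was at 1321 and 350 CPM. Run 3 stood above the others for several of these genes: Ccl2 was at 515 CPM there against 19.8 to 115 in the other 5 runs, and Cxcl2 at 5040 CPM against 549 to 1325. Mmp12 was at 793 CPM in run 3 against 79.2 to 193 elsewhere. Without run 3 Ccl2 was at 75.4 CPM in C1q macrophages and 3.83 in alveolar macrophages, and Mmp12 at 102 and 17.8. Without run 7 Pf4 was at 66.4 and 0.467 CPM. Platelet RNA was close to absent beside Pf4, with 1.52 CPM for 5 platelet markers together and 3 UMIs of Ppbp.

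Of 20 tested inflammatory genes 6 were at least 4-fold higher and 1 lower than in alveolar macrophages, beside 4.36% and 3.65% of all genes. Il1b, interleukin 1 beta, was at 802 CPM in C1q macrophages and 119 in alveolar macrophages, higher in 6 of 6 runs, and Cd14, the co-receptor for LPS, at 519 and 90.8. Il18 was the lower gene, at 81.4 and 379 CPM. Saa3, an acute-phase protein, was at 312 and 10.0 CPM when pooled, but 812 of its 1236 UMIs lay in 1 cell, only 28 members had any, and its run values were 702, 0, 0, 0, 17.8 and 0 CPM in runs 1, 3, 4, 5, 6 and 7. Without run 1 it was at 8.10 CPM in C1q macrophages and 4.73 in alveolar macrophages. Of 15 tested immediate-early and heat shock genes, 3 were at least 4-fold higher than in alveolar macrophages and 0 lower. They were Egr1 at 487 CPM in C1q macrophages and 67.1 in alveolar macrophages, Ier3 at 427 and 44.5, and Atf3 at 432 and 90.0.

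Genes of type 2 or alternative activation were examined because the study's title concerns type 2 immunity. Of 12 tested, 2 were at least 4-fold higher and 3 lower than in alveolar macrophages, beside 4.36% and 3.65% of all genes. The median log2 fold of the 12 was -0.04. Chil3 was at 24.8 CPM in C1q macrophages and 435 in alveolar macrophages, Mrc1 at 194 and 905, and Il1rn, the interleukin 1 receptor antagonist, at 53.6 and 293. Mgl2, a lectin of alternatively activated cells, was higher at 32.6 and 0.726 CPM, and at 28.6 and 0.983 CPM without run 5. Arg1, arginase 1, was at 121 and 13.7 CPM, and its run values were 245, 7.05, 0, 0, 52.5 and 0 CPM in runs 1, 3, 4, 5, 6 and 7, so the pooled level came from runs 1 and 6. Without run 1 it was at 24.8 CPM in C1q macrophages and 12.8 in alveolar macrophages, under the 4-fold mark. Without run 6 Chil3 was at 12.9 and 440 CPM. Retnla had 0 UMIs in either group. Il4ra and Il13ra1, chains of the receptors for interleukins 4 and 13, were at 61.2 and 72.0 CPM in C1q macrophages and 42.6 and 45.8 in alveolar macrophages.

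Of 13 tested interferon-stimulated genes, 8 were at least 4-fold higher and 0 lower than in alveolar macrophages, beside 4.36% and 3.65% of all genes. Ifitm3 was at 394 CPM in C1q macrophages and 57.2 in alveolar macrophages, higher in 5 of 6 runs, and Ifi204 at 88.5 and 13.1, higher in 6 of 6. Without run 1 Ifitm3 was at 227 and 62.4 CPM, 3.63-fold and under the mark, and without run 6 it was 11.9-fold higher. Against classical monocytes 0 of 14 were at least 4-fold higher and 1 was at least 4-fold lower, beside 0.661% and 0.709% of all genes. The median log2 fold of the 14 was -0.81.

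Growth factor and matrix genes held 8 of 19 that were at least 4-fold higher and 2 that were at least 4-fold lower than in alveolar macrophages. Over all genes these shares were 4.36% and 3.65%. Thbs1, thrombospondin 1, was at 359 CPM in C1q macrophages and 24.7 in alveolar macrophages, Mmp14, a membrane-bound matrix protease, at 183 and 11.5, Mmp12 at 151 and 16.5, and Timp2, a protease inhibitor, at 100 and 10.3. Gdf15 and Mmp19 were the lower pair, at 19.5 and 136 CPM and at 22.5 and 102 CPM. Igf1 was just under the mark at 3.81-fold. In the iron list 3 of 11 were higher, led by Slc11a1, the phagosomal metal transporter, at 93.5 CPM in C1q macrophages and 12.2 in alveolar macrophages, while ferritin heavy chain Fth1 was at 10620 and 11916 CPM. Cell cycle genes were lower in 9 of 14, which follows in part from the rule's limit on Mki67 and Top2a.

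**Figure D5:**
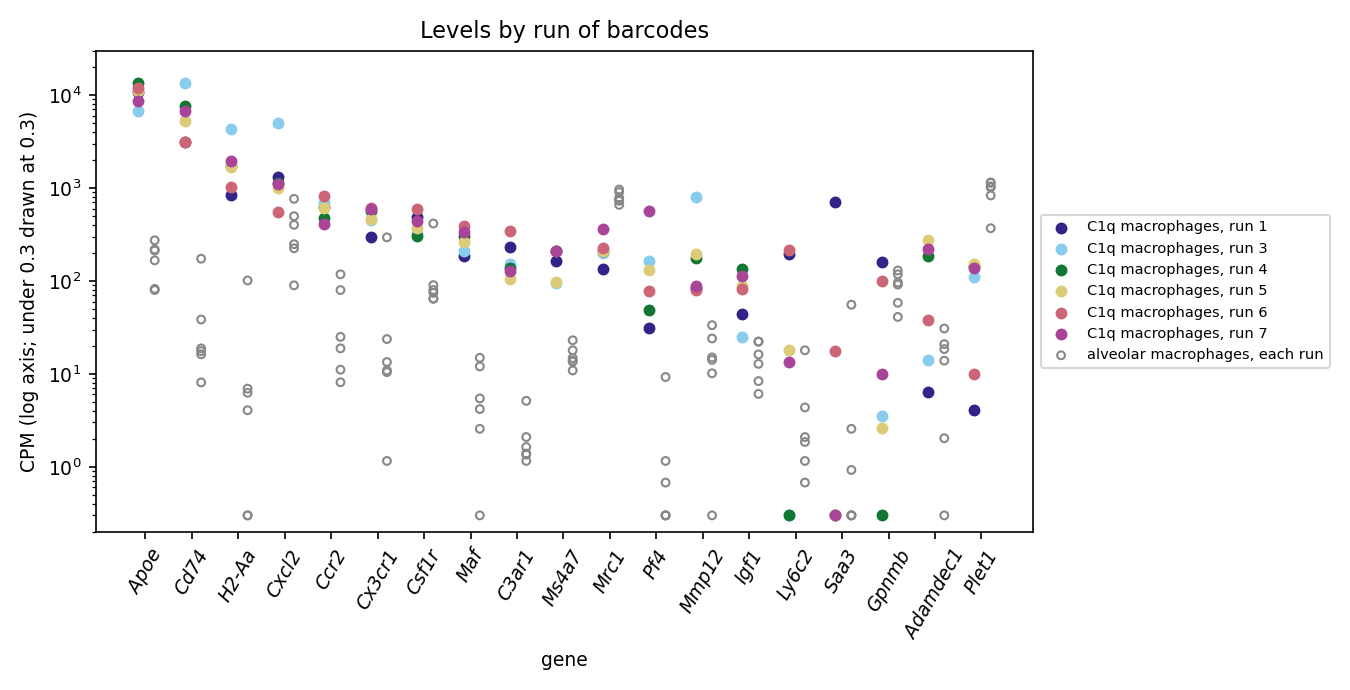
CPM of 19 genes (log axis, values under 0.3 drawn at 0.3) in C1q macrophages of each of the 6 runs (filled points, 1 colour per run) and in alveolar macrophages of the same runs (open points). Apoe, Maf and Ms4a7 were separated from the alveolar values in every run, whereas Ly6c2 and Gpnmb were highest in runs 1 and 6, where Plet1 was lowest.

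Of 25 genes followed by run, 17 had run values in C1q macrophages that did not overlap those of alveolar macrophages. Over all 6605 genes tested 990 (15.0%) did not overlap, and the 25 were picked with their pooled values known, so nothing is read from the difference. Csf1r and Aif1 were among the steadiest, with run values of 303 to 587 and 378 to 624 CPM. Gpnmb, a lysosomal glycoprotein, was at 159, 3.52, 0, 2.60, 100 and 10.1 CPM in runs 1, 3, 4, 5, 6 and 7. Adamdec1, a secreted protease of the ADAM family, was at 6.34, 14.1, 188, 276, 37.6 and 218 CPM in the same runs. Gpnmb was highest in runs 1 and 6, and Adamdec1 in runs 4, 5 and 7.

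Beside the class II split, the members varied along a range marked by Mrc1, Folr2, Lyve1 and Cd163 UMIs added up, nearly all of them Mrc1. In the 94 cells with 3 or more, Pf4 was at 239 CPM against 13.2 in the 181 cells with 0, Maf at 452 against 151, Ms4a7 at 273 against 97.5, Selenop at 552 against 198 and Mertk at 212 against 93.3. All 5 were taken from the largest folds among genes higher in 6 of 6 runs, so the choice set that agreement. Ifitm3 was at 185 CPM in the cells with 3 or more against 622 in those with 0, lower in each run by the same choice. Depth differed between these sets, with medians of 10668 and 7008 UMIs per cell, so a deeper cell was more likely to reach 3.

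A small set of 38 members had 2 or more Pf4 UMIs, a range chosen after its values were seen, and 14 of the 38 lay in run 7. In them Ms4a7 was at 783 CPM against 92.8 in the 300 members without Pf4, Maf at 1038 against 166, Stab1 at 247 against 43.0, Selenop at 1262 against 216, Gpr34 at 217 against 38.6 and Mrc1 at 680 against 130. Fcrls was at 157 CPM against 5.04, and Ccl12, which draws monocytes, at 106 against 4.75. The 3 C1q genes and Apoe followed, with C1qa at 3408 CPM against 964 and Apoe at 22721 against 9129. Lower were S100a6 at 247 CPM against 1743, S100a4 at 168 against 1026, Fn1 at 168 against 802 and Lyz2 at 5052 against 11423. Each of these was the same way round in all 4 runs with at least 5 cells on both sides. Most were picked from genes with that agreement, so it was set by the choice. Median depth was 7612 against 7644.5 UMIs. Of the 38 cells, 18 were class II high, so this range crossed the class II split.

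A set of 27 members had 10 or more UMIs of Saa3, Arg1 and Acod1 together, a range also chosen after values were seen. Of these cells 24 lay in run 1 and 3 in run 6. Their median depth was 23200 UMIs against 7117 in the other 335 members, and 1 run alone allowed a comparison. The levels that follow are not from that run but pooled over all runs, so cells mostly of run 1 are set against members of every run. Differences between runs are therefore part of these values. Inhba, which encodes the activin A subunit, was at 128 CPM in them against 3.31 in the other members, Cfb (complement factor B) at 340 against 28.9, Gpnmb at 389 against 40.9, Pdpn (podoplanin) at 149 against 15.3 and Ly6c2 at 505 against 75.2. Pf4 was at 1.58 CPM against 123, Mrc1 at 26.9 against 225, Cx3cr1 at 96.5 against 522 and Cd74 at 1653 against 5157. None of the 27 lay in the Pf4 set (0 shared cells), and 7 were class II high.

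Adamdec1 marked a further range, chosen in the same way: 47 members had 2 or more UMIs, of which 19 lay in run 5, 13 in run 7, 6 in run 4 and 6 in run 6. Adgrl3, an adhesion receptor, was at 843 CPM in them against 151 in the 296 members with 0, Apoc1 (apolipoprotein C1) at 347 against 73.9, Il18 at 237 against 59.0 and Mertk at 283 against 120. Lower were Ccl2 at 2.21 CPM against 126, Cxcl2 at 188 against 1519, Mmp12 at 28.8 against 174, Socs3 (a brake on cytokine signalling) at 26.5 against 155 and Ier3 at 133 against 471. These levels are pooled over all runs. Run 3 held 1 of the 47 cells and had high levels of Ccl2, Cxcl2 and Mmp12 (515, 5040 and 793 CPM). It therefore raises mainly the side without Adamdec1. All 9 went the same way in the 4 runs compared, but the genes were picked largely from those with that agreement. Of the 47 cells, 32 were class II high. Median depth was 8145 UMIs against 7683.5.

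Transcripts of other cell types were uneven between runs, and their part in the levels above was not tested. Summed over the 7 type 2 epithelial markers the members had 206 CPM, with runs at 17.6 to 626 and the highest in run 6, where Sftpc alone was at 408 CPM. The 7 neutrophil markers summed to 274 CPM (31.7 to 506 by run), the 7 endothelial markers to 40.2 (18.2 to 70.5), the 7 T and natural killer cell markers to 40.7 (10.1 to 102), the 7 dendritic cell markers to 6.57 (0 to 20.1) and the 7 fibroblast markers to 3.03 (0 to 5.21). All 5 mast cell and basophil markers were at 0. Of the dendritic markers Flt3 gave 9 UMIs and Xcr1 gave 0, although 176 members were class II high. S100a8, at 189 CPM in C1q macrophages, 240 in alveolar macrophages and 3757 in all other cells, is the main neutrophil transcript in the sum, and was at 54.5 CPM in C1q macrophages without run 1; how much of it is free RNA was not tested.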

How the data were processed

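The authors deposited 1 table of UMI counts (whole numbers, not normalized) with 32285 genes and 11806 cells, 77020720 UMIs in all. Per the submitters' processing notes, Cell Ranger 1.3.1 and build mm10 were used. Aligner settings and the annotation were not given in the sources used here. Of the columns, 0 belong to another series. Column names give a barcode and a merge suffix, and no library. The edgeR comparison of hyperoxia with air that had been planned was therefore not run.

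Counts were summed over the cells of each group and expressed as CPM. Folds have 95% exact conditional Poisson intervals and shares have exact binomial ones, which cover counting error only. A fold against 0 was set to 3 UMIs over the group. Shares of cells with a UMI were also taken after thinning to 2000 UMIs per cell. Median depth was 7608.5 UMIs in C1q macrophages and 4359 in other cells. The cells with the highest Scrublet (scanpy 1.11.5) doublet scores in each run were marked, 193 in all and 6 of them members. Their number was set beforehand by an assumed 0.8% of doublets per 1000 cells, so it is no count of doublets found. They were left out only in an alternative.

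The rule for named genes took the 15 largest folds over alveolar macrophages and over all other cells and the 15 smallest over alveolar macrophages, among genes with at least 100 CPM in the higher group and the same direction in every run, together with the members of 32 gene lists (443 of 445 genes are in the table). The same rule was used against classical monocytes, a comparison added after values were seen, as was the limit on neutrophil transcripts (0 UMIs of 4 granule genes, fewer than 10 of S100a8 and S100a9 together) in the monocyte rule. The members and the lists were chosen with earlier results of these data known. Nonclassical monocytes (1284 cells) had Ace and Treml4 transcripts, and T cells (927 cells) had Cd3 transcripts. The scripts were tested on simulated data and ran in Python 3.11.15 with numpy 2.4.6, scipy 1.17.1 and pandas 2.3.3. Results on some genes of these lists are not reported here.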

Additional observations from a re-analysis of the deposited data

How the results depend on the processing

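No paired analysis was possible because no column names a library, so the replicate numbers in the titles belong to no cells; for the same reason the edgeR and DESeq2 comparisons of hyperoxia with air were not run. The share of C1q macrophages, 3.07% under the rule, was 3.60% with at least 3 C1q UMIs and 2.38% with at least 10. After thinning to 2000 UMIs it was 2.29%, but of the 10383 cells with at least that depth and not of all 11806. When 1 run was left out the share lay between 2.67% (without run 6) and 3.63% (without run 7). With a minimum of 5 CPM in place of 20, genes past the fold numbered 471 higher and 449 lower than in alveolar macrophages (288 and 241 at 20 CPM), 1430 lower than in all other cells (461), and 79 higher and 128 lower than in classical monocytes (41 and 44). With a minimum of 100 CPM they numbered 109 and 100, 31 and 57, and 17 and 8 against the 3 groups in that order. The comparison with classical monocytes also moved to 69 higher genes by the mean of the CPM of each cell, to 90 higher and 73 lower after thinning, and to 95 lower without the limit on neutrophil transcripts. Leaving out 1 run at a time gave 280 to 302 higher and 236 to 267 lower genes against alveolar macrophages, 52 to 76 and 443 to 479 against all other cells, and 37 to 61 and 38 to 63 against classical monocytes. Of 1050 recomputed values of 75 named folds (53 genes), 41 moved by more than 1 SD of the runs; these genes were picked for large folds and the same direction in every run, so their direction says nothing of stability. Other genes of the lists were recomputed only without each run. Settings for classical monocytes and the listed genes without each run were added after values were seen. So were leaving the highest doublet scores out of the share and leaving out compared cells with any C1q UMI. The data are 1 pooled sample, so no interval covers differences between animals.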

Other observations

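Cells with fewer C1q UMIs than the rule asks for also carried macrophage transcripts. The 213 cells with 1 or 2 C1q UMIs that met the rest of the rule had 3133 CPM of Apoe, 1779 of Cd74 and 293 of Csf1r, and a median of 4987 UMIs. Their Sftpc level was 527 CPM, against 109 CPM in members with 20 or more C1q UMIs.

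The number of C1q macrophages for every 100 alveolar macrophages was 177 in run 1, 5.88 in run 2, 21.6 in run 3, 44.2 in run 4, 21.0 in run 5, 418 in run 6, 23.8 in run 7 and 19.05 in run 8. The summed C1q level of the members was 3481 CPM in run 1, 4533 in run 3, 4476 in run 4, 4267 in run 5, 3815 in run 6 and 4721 in run 7. Plac8, a gene of monocytes, was at 319, 0, 96.9, 122, 100 and 198 CPM in the members of runs 1, 3, 4, 5, 6 and 7. Cd86 was at 546, 504, 460, 307, 1193 and 658 CPM in the same runs.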
